A study of Mus musculus with 36 samples.

Results

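The comparison described here set the nucleus accumbens (NAc), the ventral part of the striatum, against the medial prefrontal cortex (PFC) in mice without nerve injury. It took the 6 libraries labelled sham NAc and the 6 labelled sham PFC, 12 of the 36 libraries of the series, chosen by region and surgery label alone. Both groups were adult male C57BL/6 mice that had undergone sham surgery, and tissue was taken 2.5 months later. The other 24 libraries came from the same regions after spared nerve injury (SNI), a model of neuropathic pain in which part of the sciatic nerve is severed, and from the periaqueductal grey (PAG) of the midbrain after either surgery. RNA was pooled before library preparation, and poly-T beads selected its polyadenylated part, per the labels' protocols. The number of mice in a pool is not given, nor whether 1 set of mice gave both regions. A p-value here measures how libraries spread and no more, and some of that spread may be technical.

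The striatum and the cortex are built from different principal neurons. Striatal medium spiny neurons are inhibitory, make GABA, and fall into a direct pathway class with the D1 dopamine receptor and the peptides dynorphin and substance P, and an indirect pathway class with the D2 dopamine receptor, a striatal adenosine receptor and enkephalin. Cortical projection neurons are excitatory, load glutamate through the vesicular transporter VGLUT1 (Slc17a7), and take layer identities under transcription factors such as Fezf2 and Tbr1. Striatal neurons arise from the subpallium under Dlx and related factors, and cortical projection neurons arise from the pallium. Both tissues hold interneurons, astrocytes, oligodendrocytes, microglia and vessels. In bulk tissue, fewer cells of a type and less RNA per cell cannot be told apart.

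The 2 genes given as markers of the regions behaved as the labels say in every library. Drd2 (D2 dopamine receptor, chromosome 9, 49340627 to 49408177 in mm10) had 74.8 RPKM in the lowest NAc library, a median of 92.5 and a highest value of 106, against 0.921, 1.14 and 1.74 in the PFC. RPKM are reads scaled to the length of the gene and to the assigned reads of the library. Fezf2 (a zinc finger factor of deep-layer cortical projection neurons, chromosome 14, 12342094 to 12348189) ran the other way, at 0.478, 0.948 and 1.63 RPKM in the NAc and 17.8, 22 and 24.6 in the PFC. The groups did not overlap for either gene. The means were 90.8 ± 12.2 (SD, n = 6) against 1.28 ± 0.352 RPKM for Drd2, and 1.04 ± 0.431 against 21.8 ± 2.47 for Fezf2. On the log2(RPKM + 0.5) scale used throughout, NAc minus PFC was 5.69 (SE 0.12) for Drd2 and -3.90 (SE 0.16) for Fezf2, with adjusted p of 1.15e-12 and 4.19e-10 in limma.

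Promoter windows of 4 genes with large differences are shown because the windows differ in base composition and in the short motifs they hold. They run from 250 bases before to 50 after the RefSeq start (build GRCm38.p6), with any match to the letters searched in capitals.
Drd2, chr9:49340153-49340452, + strand: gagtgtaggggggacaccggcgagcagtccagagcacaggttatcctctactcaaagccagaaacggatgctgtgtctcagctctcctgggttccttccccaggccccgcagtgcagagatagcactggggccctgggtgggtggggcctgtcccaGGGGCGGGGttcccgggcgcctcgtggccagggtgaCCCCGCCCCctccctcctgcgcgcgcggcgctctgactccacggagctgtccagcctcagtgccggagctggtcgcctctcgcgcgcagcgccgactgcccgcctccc
Gpr6, chr10:41072241-41072540, - strand: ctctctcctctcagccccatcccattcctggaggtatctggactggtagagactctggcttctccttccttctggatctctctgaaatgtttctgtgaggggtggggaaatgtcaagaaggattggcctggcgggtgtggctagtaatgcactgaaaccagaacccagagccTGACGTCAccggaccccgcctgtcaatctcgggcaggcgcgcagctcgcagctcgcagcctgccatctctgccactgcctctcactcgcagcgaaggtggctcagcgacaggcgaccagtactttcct
Fezf2, chr14:12345816-12346115, - strand: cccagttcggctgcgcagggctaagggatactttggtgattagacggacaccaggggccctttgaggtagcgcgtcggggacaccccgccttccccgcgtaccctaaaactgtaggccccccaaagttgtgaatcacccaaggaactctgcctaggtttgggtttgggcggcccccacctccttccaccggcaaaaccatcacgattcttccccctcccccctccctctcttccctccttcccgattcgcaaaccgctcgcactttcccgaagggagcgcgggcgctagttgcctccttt
Neurod6, chr6:55681214-55681513, - strand: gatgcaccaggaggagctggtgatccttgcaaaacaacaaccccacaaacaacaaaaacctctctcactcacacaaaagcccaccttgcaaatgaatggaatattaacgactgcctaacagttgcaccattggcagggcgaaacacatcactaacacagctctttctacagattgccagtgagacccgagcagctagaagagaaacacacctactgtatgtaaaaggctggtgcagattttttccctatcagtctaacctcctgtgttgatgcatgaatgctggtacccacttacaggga
The Drd2 and Gpr6 genes were high in the NAc, and Fezf2 and Neurod6 in the PFC. The Drd2 window holds the SP site letters GGGGCGGGG on the given strand, 94 bases before the start, and on the other strand 58 bases before it. The Gpr6 window holds the cAMP response element TGACGTCA 78 bases before the start. Neither the Fezf2 nor the Neurod6 window holds any of the letters searched, which says only that these letters are not in these windows. GC content was 70.3% in the Drd2 window, 58.7% in Gpr6, 61.3% in Fezf2 and 46.3% in Neurod6, with 23, 13, 20 and 3 CG pairs. The RefSeq start of Fezf2 lies 2324 bases from the start of the gene in the annotation used for coordinates. The letters searched, on both strands, were TGACGTCA, in 1.79% of all 32851 RefSeq windows of this length, GGGGCGGGG (11.4%), AAAGGTCA for Nr4a factors (1.51%), TGTTTAC for forkhead factors (3.65%), CAGATG for the NEUROD E-box (17.2%), AGGTGTGA for T-box factors (1.28%), TAATTA for homeobox factors (5.29%) and GCGTGGGCG for EGR factors (0.612%). In the 13314 windows of genes tested, TGACGTCA was in 2.93% and GGGGCGGGG in 20.6%. The table held a window for 67.9% of the symbols called higher in the NAc and 65.9% of those called higher in the PFC. Because fewer than 80% matched, a comparison of motif shares between the sets is void and is not given.

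Libraries held 38614710 (38.6 M) to 61496299 (61.5 M) assigned reads in the NAc and 36345174 to 60678431 in the PFC. The means differed by 2.67 M reads, which did not pass an exact two-sided permutation test over 924 assignments (p = 0.593). Across all genes tested, Pearson's r of log2 values was 0.981 to 0.992 between NAc libraries, 0.976 to 0.993 between PFC libraries and 0.907 to 0.95 between the regions. Genes are not independent replicates, and these r values describe the libraries only. Libraries within each region were not alike. In the NAc, summed RPKM of the 16 cortical excitatory neuron markers was 213 and 201 in libraries 1 and 5 and 371 to 458 in libraries 2, 3, 4 and 6, against 1310 to 1360 in the PFC. In the PFC, summed RPKM of 18 myelin and oligodendrocyte genes ran from 353 in library 17 to 1210 in library 15, against 958 to 1060 in the NAc. The slope of log2 level on GC content, per 10 percentage points, ran from -0.207 to 0.0355 over the NAc libraries and from -0.188 to 0.186 over the PFC libraries. It was lowest in the first library of each region, NAc 1 and PFC 13, and highest in the last, NAc 6 and PFC 18. The part of any of these in the results was not tested. Results on cortical genes are given below also without NAc libraries 2, 3, 4 and 6. Those 4 were picked for their level of such genes, so the larger differences without them follow from the choice and are a description.

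A gene was called where the adjusted p was under 0.05 and the difference at least 2-fold on the log2(RPKM + 0.5) scale. The test covered 15397 genes whose mean over the 12 libraries reached 0.5 RPKM. Of these, 540 were called higher in the NAc (3.51%) and 560 higher in the PFC (3.64%), 1100 in all (7.14%). The 6 libraries of one region lay wholly above the 6 of the other for 1074 of these 1100 genes, and for 34.8% of all genes tested. A difference of at least 4-fold was called for 150 genes higher in the NAc and 114 higher in the PFC. The median difference over all genes tested was 0.07. Without regard to fold, 55.4% of genes had an adjusted p under 0.05. Of those 8528 genes as deposited, 62.5% were higher in the NAc. The share was 49.8% of 7974 after median-of-ratios scaling, which sets the median difference to 0.0, and 51.7% of 8665 after a trend with GC content was removed, which left it at 0.02. Of called genes 49.1% were higher in the NAc as deposited, 43.4% after median-of-ratios scaling and 46.2% with the GC trend removed. Without NAc libraries 2, 3, 4 and 6, 568 genes were called higher in the NAc and 769 higher in the PFC.

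**Figure D1:**
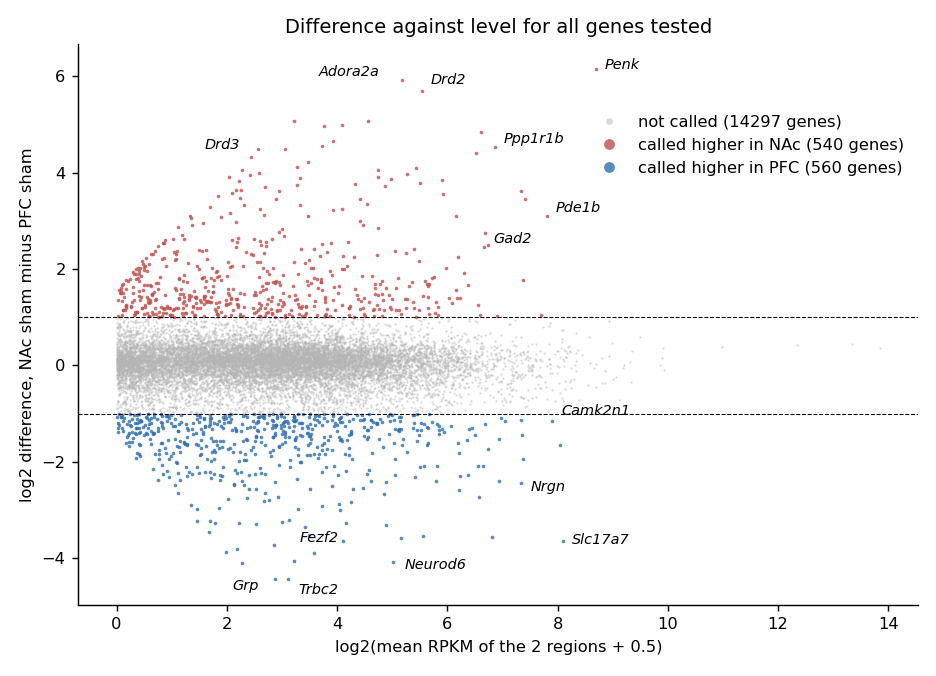
Each point is 1 of the 15397 genes tested, with the log2 of its mean RPKM over the 2 regions (plus 0.5) on the x axis and the log2 difference, NAc sham minus PFC sham, on the y axis. Red points are the 540 genes called higher in NAc, blue points the 560 called higher in PFC, grey points were not called, and dashed lines mark 2-fold. Penk stands at 6.14, and Slc17a7 is both abundant and low in NAc.

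The largest differences toward the NAc were those of medium spiny neuron genes. Penk, the enkephalin precursor (chromosome 4, 4133531 to 4138819), had 642 RPKM in the lowest NAc library, a median of 786 and a highest value of 1020, against 9.62, 10.7 and 13.7 in the PFC. The difference was 6.14 (SE 0.12, adjusted p = 8.07e-13), and Penk was also the most abundant gene called higher in the NAc. Of 21 medium spiny neuron markers tested, 19 were called higher in the NAc and none in the PFC, with a median difference of 3.10 against 0.07 for all genes. Strn4, a striatin family member, and Rgs14, a regulator of G protein signalling, were the remaining members, at -0.43 and 0.76. The list of markers was compiled with earlier results of these data known, so its count describes these libraries.

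The indirect pathway genes, a separate list, included the 3 largest differences of all genes, Penk, Adora2a and Drd2. Adora2a, an adenosine receptor, had 45.7 to 95.9 RPKM in the NAc (median 68.5) and 0.470 to 0.836 in the PFC (median 0.644), a difference of 5.92 (SE 0.15). Gpr6, an orphan receptor of indirect pathway neurons, had 21.3, 26.8 and 29 RPKM as the lowest, median and highest NAc values and 0.269, 0.325 and 0.465 as those of the PFC, a difference of 4.97 (SE 0.09). For both genes all NAc libraries lay far above all PFC libraries. Of 8 indirect pathway genes tested 6 were called higher in the NAc, among them Sp9, a transcription factor, at 1.58. Grik3, a kainate receptor subunit (-0.36), and Plxdc1 (-0.51) were not called. Of 9 direct pathway genes 6 were called. Drd1a, the D1 dopamine receptor, stood at 66.8 to 104 RPKM in the NAc and 4.64 to 6.43 in the PFC, a difference of 3.78. Pdyn, the dynorphin precursor, differed by 3.55, Tac1, the precursor of substance P, by 4.10, and Chrm4, a muscarinic receptor, by 1.14. Slc35d3, a nucleotide sugar transporter family member that acts in D1 receptor trafficking, had 9.38 to 18.5 RPKM in the NAc and 0.136 to 0.238 in the PFC, and differed by 4.50.

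**Figure D2:**
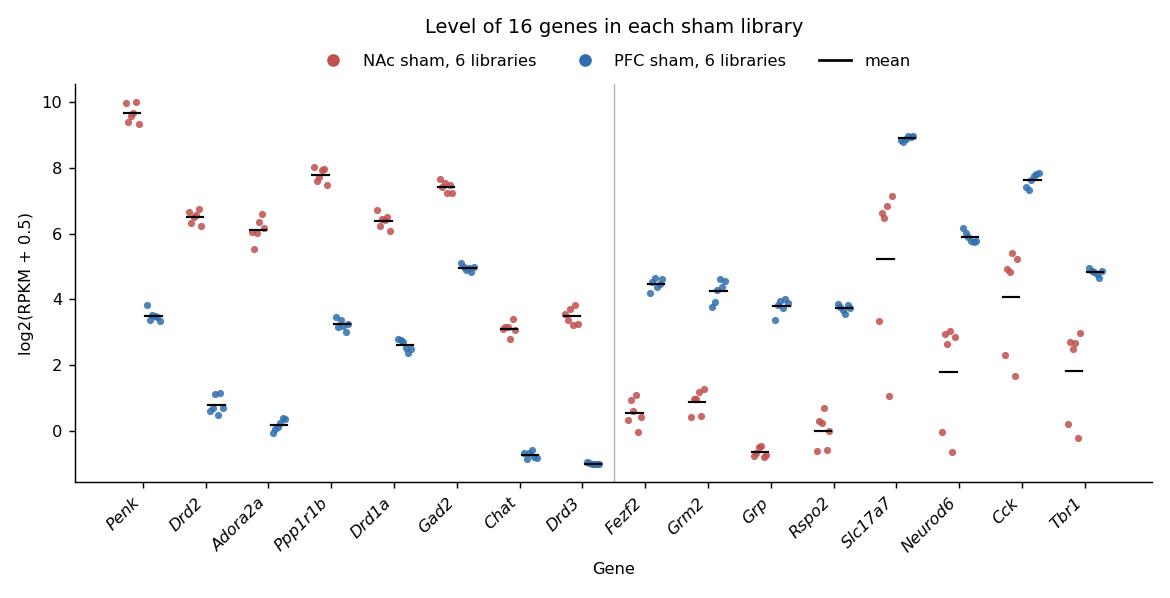
The level of 16 genes, as log2(RPKM + 0.5), in each of the 6 NAc sham libraries (red) and 6 PFC sham libraries (blue), with black bars for the means. Points from left to right within a group are libraries in number order. For the 8 genes left of the line all NAc libraries lie above all PFC libraries, and for the 8 on the right all lie below, with a wide NAc spread for Slc17a7, Neurod6, Cck and Tbr1.

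Genes that carry dopamine signals onward in medium spiny neurons were also far higher in the NAc. Ppp1r1b, which encodes the phosphatase inhibitor DARPP-32, had 178 to 257 RPKM in the NAc and 7.51 to 10.6 in the PFC (difference 4.54, SE 0.10). Of 23 adenylyl cyclases and phosphodiesterases tested, 8 were called higher in the NAc and 3 higher in the PFC. The shares of all genes were 3.51% and 3.64%. The 8 higher in the NAc included Pde10a at 3.85, Pde7b at 3.25, Pde1b at 3.10 and Adcy5, the main striatal adenylyl cyclase, at 2.75. Adcy1, a cyclase driven by calcium and calmodulin, ran the other way at -2.28, from 120 to 147 RPKM in the PFC to 18.6 to 33.9 in the NAc. Pde2a, which was abundant in both regions, differed by 0.23 and was not called. Among 17 regulators of G protein signalling, 4 were called higher in the NAc, led by Rgs9 at 3.97, and Rgs6 was called higher in the PFC at -1.24. Gng7, a G protein gamma subunit, differed by 3.46 and Gng2 by -1.29, so members of one family lay on opposite sides.

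Of 13 dopamine signalling genes tested, 7 were called higher in the NAc and none higher in the PFC. Drd3, the D3 receptor of the ventral striatum and islands of Calleja, had 8.89 to 13.6 RPKM in the NAc, and no PFC library reached more than 0.0273. It belonged to a list of 9 ventral striatal and island genes of which 8 were called higher in the NAc, with a median of 3.34. Nts (neurotensin) differed by 4.65, Cartpt (the CART peptide precursor) by 4.05, Dlk1 by 3.88 and Peg10 by 3.34. Npy1r, a neuropeptide Y receptor, was the member not called, at -0.28. Of these genes, Calcr, the calcitonin receptor, was uneven in the NAc, at 0.788 to 3.38 RPKM (SE 0.21 on a difference of 2.31).

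Cholinergic interneurons are a sparse striatal class that makes acetylcholine. Of 6 of their genes tested, 5 were called higher in the NAc, with a median of 2.98. Chat, the enzyme that makes acetylcholine, had 6.47 to 10.1 RPKM in the NAc and 0.0646 to 0.169 in the PFC, a difference of 3.83. Slc5a7, the choline transporter, differed by 3.71 and Lhx8, a factor of subpallial cholinergic neurons, by 3.10. Ache, which breaks acetylcholine down, differed by 0.46 with overlapping libraries and was not called.

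Genes of GABA synthesis and transport were higher in the NAc in part. Of 8 tested, 4 were called. Gad2, a glutamate decarboxylase, had 151 to 200 RPKM in the NAc and 27.9 to 34.3 in the PFC, a difference of 2.46, while Gad1, its partner enzyme, differed by 1.39. Slc32a1, the vesicular GABA transporter, differed by 1.82 and Abat, which degrades GABA, by 1.56. Slc12a5, a chloride exporter gene, was not called at -0.07. Markers of cortical interneuron classes were spread on both sides: of 18 tested, 1 was called higher in the NAc and 3 higher in the PFC. Sst (somatostatin) and Npy (neuropeptide Y) were not called, at -0.27 and -0.24, with overlapping libraries. Vip, a peptide of another interneuron class, was higher in the PFC at -2.87. Its NAc libraries were uneven, from 0.928 to 6.19 RPKM, and the difference was -4.01 without NAc libraries 2, 3, 4 and 6.

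Transcription factors of the subpallium kept to the NAc side. Of 18 tested, 12 were called higher in the NAc and none in the PFC, with a median of 1.64. Six3, a homeobox factor, had 8.76 to 11.2 RPKM in the NAc and at most 0.0457 in the PFC, the smallest adjusted p of all genes (8.2e-14, difference 4.32). Isl1, a factor of direct pathway and cholinergic neurons, differed by 3.90 and Dlx6 by 2.63. Lhx6 (0.50), which also marks interneurons that migrate into the cortex, was not called. Retinoid genes overlap this list. Rarb, a retinoic acid receptor, had 38.4 to 61.0 RPKM in the NAc and 2.50 to 3.22 in the PFC (3.90), Rxrg differed by 3.46 and the binding protein gene Crabp1 by 3.08. In all 6 of 17 retinoid genes were called higher in the NAc, and 2 were called higher in the PFC, namely Aldh1a3, which makes retinoic acid, at -1.40 and Rbp4 at -1.13.

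Pallial factors showed both directions. Of 29 tested, 15 were called higher in the PFC and 3 higher in the NAc. Neurod6, a factor of maturing excitatory neurons (chromosome 6, 55677822 to 55681263), had 52.8 to 70.8 RPKM in the PFC and 0.146 to 7.80 in the NAc, a difference of -4.08 (SE 0.60) and of -6.21 without NAc libraries 2, 3, 4 and 6. Tbr1, a factor of deep-layer neurons, differed by -3.01 (SE 0.51), and by -4.81 without those libraries. The members called higher in the NAc included Foxp2 at 2.56 and Lmo3 at 1.15. Foxp2 marks layer 6 in cortex and is also a striatal factor. The other was Bcl11b, which is known in both layer 5 and medium spiny neurons, at 1.59. It was named after its value was seen. Lmo3 fell to 0.90 without those 4 libraries and was then not called.

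Slc17a7 (VGLUT1, chromosome 7, 45163949 to 45176142) was the most abundant gene called higher in the PFC and was uneven in the NAc. NAc libraries 1 to 6 had 9.60, 97.8, 88.3, 113, 1.59 and 139 RPKM. PFC libraries had 439 to 499 RPKM with a median of 475, so the groups did not overlap. The difference was -3.64 with an SE of 0.89 (adjusted p = 0.0034), and -6.69 without NAc libraries 2, 3, 4 and 6. Of 16 cortical excitatory markers tested, 13 were called higher in the PFC and none in the NAc, with a median of -2.53, or of -3.38 without the 4 libraries. Cck, a peptide made by cortical projection neurons and some interneurons, had 160 to 230 RPKM in the PFC and 2.71 to 42.4 in the NAc. Ptk2b, a tyrosine kinase, at 0.54 and Kcnv1, a potassium channel subunit, at -0.67 were not called.

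The cortical genes differed in how far below the PFC each NAc library lay. As a share of the PFC mean, Slc17a7 was at 2.03% and 0.336% in NAc libraries 1 and 5 and at 18.7% to 29.4% in the other 4. Slc30a3, the vesicular zinc transporter, was at 1.38% and 0.425% in libraries 1 and 5 and at 14.6% to 28.4% in the others. Tbr1, Neurod2, Cck and Nrn1 showed the same order of those 2 libraries below the other 4. Over the 13 called excitatory markers the median share was 2.42% and 1.30% in libraries 1 and 5 and 14.6% to 26.7% in libraries 2, 3, 4 and 6. Over all 560 genes called higher in the PFC it was 21.6% and 22.5% in libraries 1 and 5 and 29.9% to 35.6% in the other 4.

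Fezf2, Rspo2 and Grp were also lowest in NAc libraries 1 and 5, but in libraries 2, 3, 4 and 6 each stood at a smaller share of its PFC mean than Slc17a7. Fezf2 was at 3.55% and 2.19% in libraries 1 and 5 and at 3.86% to 7.46% in the other 4. Rspo2, a secreted Wnt enhancer, was at 1.21% and 1.35% and at 3.87% to 8.74%. Grp, gastrin-releasing peptide, was at 0.71% and 0.6% and at 0.822% to 1.71%. Without the 4 libraries the difference went from -3.90 to -4.31 for Fezf2 and from -3.73 to -4.33 for Rspo2. Grp had less than the added 0.5 RPKM in every NAc library, so its difference on this scale could hardly change.

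Another set of cortical genes came near or passed the PFC level in some NAc libraries. Nr4a2, a nuclear receptor of the claustrum and of the deepest cortical layer, had 0.510 and 0.340 RPKM in NAc libraries 1 and 5 and 3.02 to 4.35 in the other 4, against 2.72 to 3.43 in the PFC. It was named after its values were seen, as were Cplx3, Ntng2 and Emx1. Nr4a2 was not called at -0.53 (adjusted p = 0.287), and was lower in the NAc at -1.95 (adjusted p = 1.94e-06) without the 4 libraries. Ctgf, a gene of the deepest cortical layer, had 0.715 to 8.19 RPKM in the NAc and 3.87 to 6.99 in the PFC, at -0.95 with the 4 libraries and -2.18 without. It passed its PFC mean only in NAc library 4, at 140%, and was at 12.2% to 70.4% in the others. That library also had the highest sum of meningeal and fibroblast genes, and a link was not tested. Ctgf was not called, but was called without NAc library 4, and with median-of-ratios scaling, voom or the GC trend removed. Cplx3, a complexin of the same layer, was at 11.9% to 76.5% of its PFC mean. It was called higher in the PFC at -1.09, and lost the call without NAc library 1 and without NAc library 5. The shares, in each NAc library, of Slc17a7, Fezf2 and Nr4a2 therefore did not keep one ratio.

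**Figure D3:**
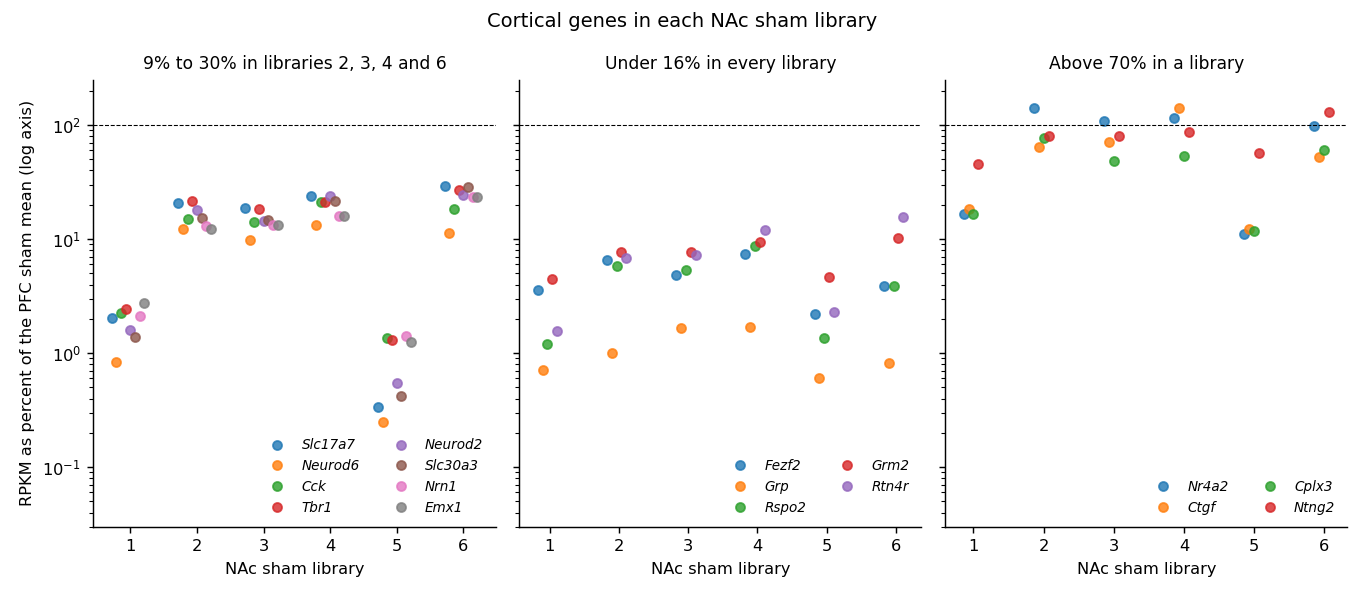
RPKM of cortical genes in each NAc sham library as a percent of the PFC sham mean, on a log axis, with the dashed line at 100%. Every gene drawn was lowest in libraries 1 and 5, which did not hold for Cux2, Rprm and Ldb2, not drawn. The left panel holds genes that stood between 9.86% and 29.4% in libraries 2, 3, 4 and 6, such as Slc17a7. The middle panel holds genes at under 16% in every library, among them Fezf2 and Grp, and the right panel genes such as Nr4a2 that passed 70% in a library.

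Layer genes gave a mixed picture. Of 13 layer 5 genes 6 were called higher in the PFC and none in the NAc, with a median of -0.64. After Fezf2 these were Npr3 at -1.83, Ldb2 at -1.69, Deptor at -1.53, Rbp4 and Etv1, which lost its call without PFC library 13. Among 13 upper-layer genes, 2 were called on each side. Cux2, an upper-layer factor, had 7.81 to 14.8 RPKM in the PFC and 3.00 to 5.87 in the NAc (-1.39), and Mdga1, an adhesion protein, ran the other way at 1.78. Layer 6 genes divided with 3 higher in the NAc (Foxp2, Syt6 at 2.26 and Crym at 1.09, which lost its call with the GC trend removed) and 4 higher in the PFC, led by Rprm at -1.86, Garnl3 at -1.43 and Ntsr1, a neurotensin receptor of layer 6 neurons, at -1.42.

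Among peptides other than opioids, 4 of 19 were called higher in the NAc and 6 higher in the PFC. The shares of all genes were 3.51% and 3.64%. The peptides higher in the NAc were Nts, Tac1, Cartpt and Scg2. Scg2, a granin, differed by 1.77, from 67.3 to 86.5 RPKM in the PFC to 226 to 310 in the NAc. Grp had 9.98 to 15.6 RPKM in the PFC and 0.0814 to 0.232 in the NAc. Adcyap1, the PACAP precursor, differed by -3.26. Of 8 opioid genes, 4 were called higher in the NAc: Penk, Pdyn, Oprk1, the kappa receptor, at 2.34 and Oprm1, the mu receptor, at 1.35. Oprm1 stood at 1.17 to 2.08 RPKM in the NAc and 0.294 to 0.466 in the PFC, and lost its call with a pseudocount of 1. Oprd1, the delta receptor, was not called at -0.19.

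Receptors for peptides separated in 2 directions, with 4 of 20 called higher in the NAc and 7 higher in the PFC. For all genes these shares were 3.51% and 3.64%. Tacr1, the receptor for substance P, differed by 2.98, from 0.430 to 0.761 RPKM in the PFC to 6.57 to 8.85 in the NAc. The somatostatin receptor genes Sstr1, Sstr2 and Sstr3 were higher in the PFC, at -1.66, -1.54 and -1.76, and Cckbr, the main brain receptor for cholecystokinin, at -2.56. For these receptors and their peptides the region with more ligand RNA also had more receptor RNA in the pairs of Tac1 with Tacr1 and of Cck with Cckbr. The reverse held for Nts, higher in the NAc, with Ntsr1, higher in the PFC.

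Among glutamate receptor genes, calls fell in the list of metabotropic receptors and scaffolds. None of 17 AMPA, NMDA and kainate receptor subunits was called, and the members ran from -0.84 to 0.96. Of all genes 7.14% were called, a share at which a list this short would hold few calls. Of the 17 subunits 13 had an adjusted p under 0.05 in limma, as did 55.4% of all genes. Gria1, an abundant AMPA subunit, had 121 to 138 RPKM in the NAc and 88.9 to 106 in the PFC, at 0.40. Of 16 metabotropic receptors and postsynaptic scaffolds, 1 was called higher in the NAc and 5 higher in the PFC. Grm2, a presynaptic autoreceptor, had 13.3 to 24 RPKM in the PFC and 0.850 to 1.95 in the NAc (-3.36, SE 0.18), and Grm8 differed by -1.98. Grm4, found on striatal output terminals, was higher in the NAc at 1.73. The scaffolds Shank1 and Dlgap1 differed by -1.80 and -1.53, while Dlg4, which encodes PSD-95, was not called at -0.14.

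Other transmitter receptors were divided by subtype. Of all genes tested, 3.51% were called higher in the NAc and 3.64% higher in the PFC. Of 9 acetylcholine receptors tested, Chrm5 (1.75) and Chrm4 were higher in the NAc and Chrm3 (-2.08), Chrna5 (-1.64) and Chrna4 (-1.07) higher in the PFC, while Chrm1 was not called at -0.30. The call for Chrna4 was lost without NAc library 1. Of 11 serotonin receptors 4 were called higher in the NAc. Htr1d had 3.29 to 5.01 RPKM in the NAc and at most 0.136 in the PFC (2.91), and Htr2c, Htr4 and Htr1b followed at 2.52, 2.03 and 1.70. Htr3a, an ion channel receptor of cortical interneurons, was higher in the PFC at -1.57. Of 8 adrenergic receptors tested 2 were called on each side and 4 were not called. The alpha-1 receptors Adra1d (-2.96) and Adra1b (-2.28) were higher in the PFC. The alpha-2 receptors Adra2b (1.80) and Adra2c (1.71) were higher in the NAc. Adra1a, also an alpha-1 receptor, was not called, at 1.93 to 2.98 RPKM in the NAc and 3.37 to 4.07 in the PFC. Of 15 GABA receptor subunits 2 were called higher in the NAc, Gabrd at 1.26 and Gabrg1 at 1.21, and Gabbr2, a GABA-B subunit, higher in the PFC at -1.62. Its partner subunit gene Gabbr1 was not called at 0.24.

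Endocannabinoid genes were lower in the NAc where called. Cnr1, the CB1 receptor, had 41.2 to 48.3 RPKM in the PFC and 13.9 to 26.3 in the NAc (-1.14), Faah, which degrades anandamide, differed by -1.74 and Napepld, which makes it, by -1.36. The other 6 of 9 were not called. For adenosine and purine genes, 3 of 10 were called higher in the NAc. Besides Adora2a these were P2ry1 at 3.32 and Nt5e, an enzyme that makes adenosine, at 2.57, while Adora1, the A1 receptor, was not called at -0.14.

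Ion channels made up one of the larger groups with calls on both sides. Of 54 potassium and HCN channel genes, 7 were called higher in the NAc and 10 higher in the PFC. The shares of all genes were 3.51% and 3.64%. Kcna5 had 10.8 to 15.5 RPKM in the NAc and 0.651 to 0.840 in the PFC (3.46), and Kcna4 differed by 1.79. Kcnj9 and Kcnj6, subunits of channels opened by G proteins, differed by -1.94 and -1.71. Among 10 sodium channel genes Scn4b, a beta subunit, had 145 to 216 RPKM in the NAc and 4.27 to 12.3 in the PFC (4.85). Of 21 calcium channel genes 4 were called higher in the NAc, including the related auxiliary subunit genes Cacna2d2 (1.99) and Cacna2d3 (1.83). The T-type channel gene Cacna1g was higher in the PFC at -2.01. Calcium sensors followed no single direction. Necab2 was higher in the NAc at 2.41. Nrgn (neurogranin, -2.45), Ncald (-2.30) and Vsnl1 (-1.65) were higher in the PFC. Nrgn was uneven in the PFC, with 159 and 155 RPKM in libraries 13 and 14 and 280 to 378 in the other 4.

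The presynaptic machinery showed paired members on opposite sides. Of 31 genes, 5 were called higher in the NAc and 8 higher in the PFC, against 3.51% and 3.64% of all genes. Sv2c, a synaptic vesicle protein, differed by 3.76 and its family member Sv2b by -1.73. Unc13c (2.56) and Syt6 were higher in the NAc, and the membrane fusion protein gene Stx1a had 100 to 137 RPKM in the PFC and 11.7 to 31 in the NAc (-2.58, and -3.29 without NAc libraries 2, 3, 4 and 6). Snap25, which acts with Stx1a, was not called at -0.72.

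Genes of wiring and growth were called in both directions. Of 52 axon guidance genes, 4 were higher in the NAc and 6 in the PFC, against 3.51% and 3.64% of all genes. Ntn1 (netrin) differed by 2.48 and Ephb6, an Eph receptor without kinase activity, by -2.27. None of 25 cadherins and delta protocadherins was called, where 7.14% of all genes were. An adjusted p under 0.05 in limma was reached by 15 of them, a share near the 55.4% of all genes. Among neurotrophic genes, Bdnf had 4.58 to 6.60 RPKM in the PFC and 0.0928 to 1.33 in the NAc (-2.37, and -3.24 without NAc libraries 2, 3, 4 and 6). Ntrk2, the receptor for the Bdnf protein, was not called at -0.15. The co-receptor gene Gfra2 was higher in the PFC at -2.55, and Gfra1, with its ligand gene Gdnf, higher in the NAc at 1.73 and 1.59.

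Immediate-early genes, which neurons switch on within minutes of activity, were lower in the NAc where called. Of 24 tested, 5 were called higher in the PFC, against 3.64% of all genes, and none in the NAc, with a median of -0.72. Only Ier2 and Nr4a3 among these 5 had libraries that did not overlap. Fos had 6.09 to 16 RPKM in the PFC and 3.23 to 7.06 in the NAc (-1.15), with PFC library 18 at 6.09 and the other 5 at 11.4 or more. Arc was at 17.9 RPKM in that same library and at 34.5 to 57.9 in the other 5. Junb had 2.36 to 14.4 RPKM in the PFC and 1.86 to 4.34 in the NAc (-1.2). Nr4a3 lost its call without NAc library 5 or 6, with array weights and with a pseudocount of 1. Fos lost its call with array weights, and Arc and Junb lost theirs without NAc libraries 2, 3, 4 and 6. Egr1 was not called at -0.59. In the libraries from SNI animals, 1 of these 24 genes was called higher in the PFC, and the difference between the surgeries was called for none of them.

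Among the glial lists, only that of regionally patterned astrocyte genes had calls on both sides. Of 15 regionally patterned astrocyte genes 3 were called higher in the NAc and 2 higher in the PFC. No gene was called among 14 microglia, 13 endothelial, 11 mural cell, 9 oligodendrocyte precursor, 11 meningeal and 5 red blood cell genes, where 7.14% of all genes were called, a share at which lists this short would hold about 1 call or fewer each. Astrocyte markers gave 1 call of 15, Slc4a4, a bicarbonate transporter, at 1.17, and Slc1a2, the main glutamate transporter, had 256 to 290 RPKM in the NAc and 265 to 293 in the PFC. Agt (angiotensinogen) was higher in the NAc at 1.13 and lost its call without NAc library 2. Among myelin genes none of 18 was called, although 17 of 18 were above 0 and their median was 0.68. Without PFC library 15, 5 of them were called, and without PFC library 18, 2 were. Ribosomal protein, oxidative phosphorylation and proteasome genes also gave no calls, with medians of 0.24, 0.26 and 0.10.

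Genes of neighbouring tissue and of midbrain dopamine neurons were checked as well. Of 7 claustrum and insula genes 2 were called higher in the NAc and 1 higher in the PFC. Of 3 olfactory bulb genes tested 1 was called, higher in the NAc. Of 8 septum and pallidum genes 3 were called higher in the NAc, of which Ecel1 had 12.3 to 16.8 RPKM in the NAc and 0.471 to 0.796 in the PFC (3.61). Without NAc libraries 2, 3, 4 and 6, 1 of them was called. Of 3 choroid plexus genes tested 2 were called higher in the NAc. Clic6 had 5.64 to 10.3 RPKM in the NAc and 0.0844 to 0.244 in the PFC (3.58), and was highest in NAc libraries 5 and 1. Ttr, the most abundant transcript of choroid plexus, was not called and ranged from 0.143 to 8.86 RPKM in the NAc and 0.293 to 8.41 in the PFC. Of 4 midbrain dopamine neuron genes tested, out of 7 listed, 3 were called higher in the NAc, and 1 with a pseudocount of 1. Slc6a3, Pitx3 and En1 were too low to be tested. Their means were 0.18, 0.00361 and 0.00467 RPKM in the NAc and 0.0358, 0.00581 and 0.00461 in the PFC. Th, the enzyme of dopamine synthesis, had 2.53 to 3.02 RPKM in the NAc and 0.682 to 1.13 in the PFC (1.2) and lost its call with that pseudocount. Ddc, the next enzyme of that pathway, differed by 1.41.

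A T cell receptor gene headed the PFC list. Trbc2, a constant segment of the T cell receptor beta chain, had 10.8 to 23.1 RPKM in the PFC and 0.0671 to 0.468 in the NAc, a difference of -4.44 (SE 0.18). The joining segments Trbj2-3 and Trbj2-7 were listed at 0 in all 6 NAc libraries and at 5.05 to 9.73 and 3.17 to 10.3 RPKM in the PFC. Cd4, a coreceptor of T cells, ran the other way, at 8.62 to 12.5 RPKM in the NAc and 0.123 to 0.256 in the PFC (3.99). Both genes are known from T cells, and the cells behind these reads were not determined. Among long non-coding genes, Gm27031 differed by 3.87 and 1700003D09Rik by 3.17. On the PFC side 9130024F11Rik, annotated as antisense, differed by -3.27, and Gm13601 by -2.65. How strand was counted is not given in the sources used here, so antisense genes and their partners cannot be told apart.

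**Figure D4:**
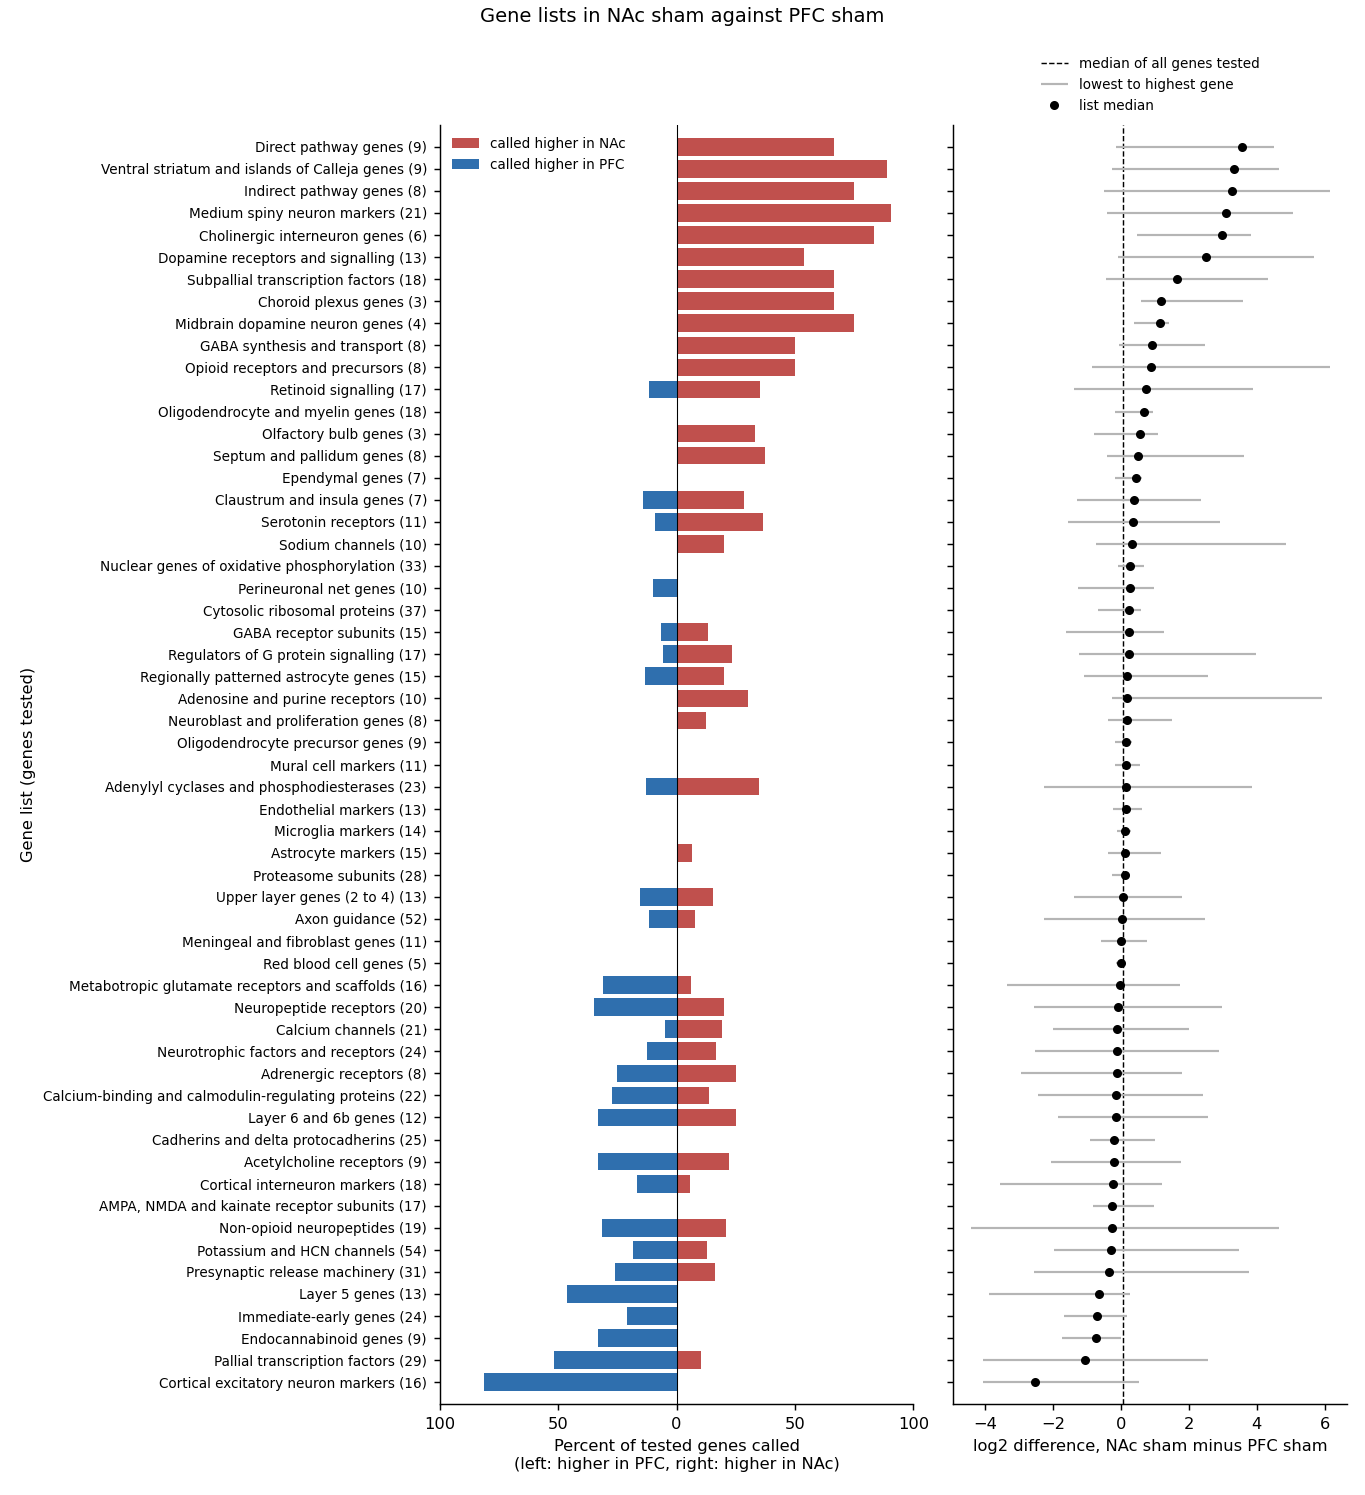
For each of 57 gene lists (genes tested in parentheses), the left panel gives the percent of tested genes called higher in NAc (red, right) or in PFC (blue, left), and the right panel the median difference (point) with the lowest and highest gene (line). The dashed line marks the median of all genes tested, 0.07. The 5 lists with medians above 2.5 are striatal and sit at the top, and cortical excitatory markers at the bottom at -2.53.

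In 26 of the 1100 called genes the libraries of the 2 regions overlapped, 5 of them higher in the NAc and 21 in the PFC. Nmbr, the neuromedin B receptor, had 1.0 and 0.759 RPKM in NAc libraries 1 and 5 and 4.72 to 6.57 in the other 4, against 0.759 to 1.08 in the PFC. Its difference of 1.31 went to -0.07 without those 4 libraries, so the call rests on them. Spp1 and Fgfbp1 were each led by NAc library 4, with 11.2 and 6.84 RPKM, and both lost their calls without it. Spp1 also lost its call without 3 other libraries in turn. In that library the summed RPKM of 12 meningeal and fibroblast genes was 113, against 12.9 to 42.3 in the other 5 NAc libraries, and that of 11 mural cell markers was 141 against 66.4 to 77.7. The part of these in the calls was not tested. Lrfn1, Tmem132a and Tle2 were called higher in the PFC at -1.48, -1.46 and -1.21.

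The same regions were compared in SNI libraries, which share no library with the sham groups. Of 15293 genes tested, 527 were called higher in the NAc (3.45%) and 596 higher in the PFC (3.9%). Of the 540 genes called higher in NAc sham 502 were called in the same direction in SNI, 93.0% of the sham list and 95.3% of the SNI list. Of the 560 genes called higher in PFC sham 522 were, 93.2% of the sham list and 87.6% of the SNI list. Drd2 differed by 5.52 and Fezf2 by -3.89 in SNI. Across the 15209 genes tested in both, Pearson's r of the 2 differences was 0.975, a description across genes, which are not replicates. Rn7sk and Mir132, both small RNA genes with overlapping libraries, were the only ones with the opposite sign in SNI among the 538 and 555 called genes also tested there, at 1.27 and -1.23 in sham and -0.16 and 0.24 in SNI. Mir132 lost its sham call when any 1 of 7 libraries was left out.

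A test of the difference between the surgeries, in 1 model of the 24 libraries, called no gene of 15344 (0.0%) in limma, and 132 genes had an unadjusted p under 0.05. Their share is far below the 0.05 that uniform p-values would give. The test was thus conservative in these libraries and could hardly call a gene, for a reason that was not tested. No other tool was run for this test. Leaving out SNI NAc library 7 raised the number with an unadjusted p under 0.05 to 391, with no gene called. The smallest p values belonged to small RNA genes, n-R5s207 (0.00211) and Gm24494 (0.00233). Rn7sk had an unadjusted p of 0.0538 and Mir132 of 0.107. A difference between the surgeries was therefore not detectable in these libraries for any gene, which does not show that the region difference was the same.

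**Figure D5:**
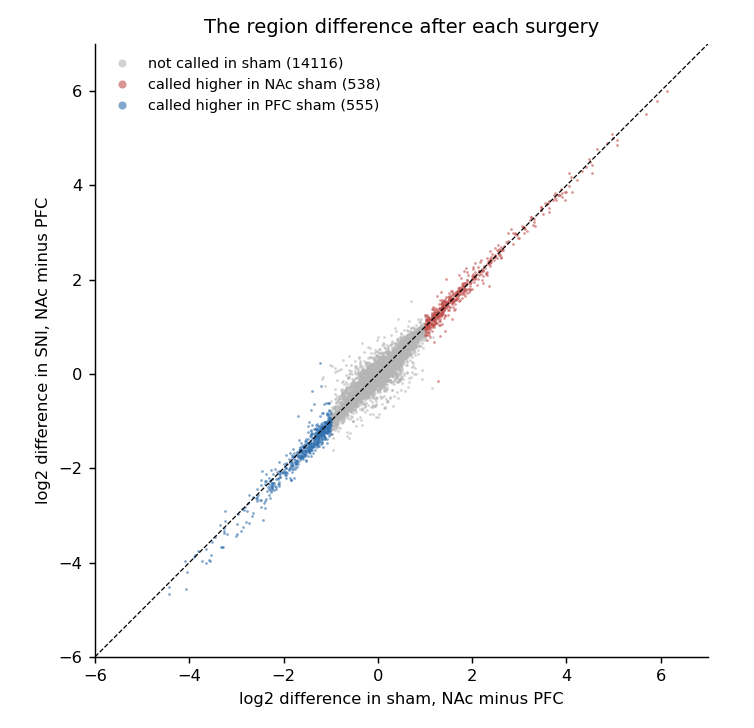
The log2 difference, NAc minus PFC, of each gene tested in both surgeries, in sham libraries on the x axis and in SNI libraries on the y axis, with the line of equal values dashed. Red and blue points are genes called higher in NAc sham and PFC sham. They lie along the dashed line (r = 0.975 across 15209 genes), and 2 called genes have opposite signs.

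Against the PAG, a midbrain region, levels of the called genes took every order. Of the 540 genes higher in the NAc, the PAG sham mean lay between the PFC and NAc means for 287, below the PFC mean for 154 and above the NAc mean for 99. For the 560 genes higher in the PFC the PAG mean lay between for 293, below the NAc mean for 211 and above the PFC mean for 56. Gad2 had 112 ± 4.47 RPKM (SD, n = 6) in the PAG, close to the NAc side, whereas Fezf2 had 0.0424 ± 0.0126. Cartpt was higher in the PAG, at a mean of 185, than in the NAc, and Scg2 at a mean of 362. These PAG values are levels without a test. The median gene length was 3753 bases in genes higher in the NAc, 3405 in genes higher in the PFC and 3395 in all tested. The median GC content was 49.8%, 52.4% and 49.6%. The slope of log2 level on GC content reached 0.0355 in the NAc libraries and 0.186 in the PFC libraries. Its part in the GC content of the called genes was not tested.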

How the data were processed

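Bulk RNA-seq of 6 sham NAc and 6 sham PFC libraries was compared, grouped by the labels. The deposited values are RPKM. Reads were aligned to mm10 with TopHat2 and counted with HTSeq, per the submitters' processing notes, and the strand setting is not given in the sources used here. RPKM times gene length gave whole reads for all genes (tolerance 0.001), from which depth was recovered. Genes averaging 0.5 RPKM or more were tested with limma 3.58.1 (mean-variance trend, two-sided, Benjamini-Hochberg) on log2(RPKM + 0.5), which understates differences of low genes. The fit was tested on simulated data. Gene lists and members were chosen with earlier results of these data known, and lists carry no test. Genes were named by rule: the largest differences and most abundant calls per region, up to 6 called and 2 uncalled members per list, overlapping calls and long non-coding genes. Coordinates come from GENCODE M21 (97.9% of genes matched). Alternatives were other pseudocounts, filters, scalings, fold thresholds and left-out libraries, a GC correction, array weights, a voom fit and a fit of all 36 libraries. Near-copies and overlapping genes are uncertain. Figures used matplotlib 3.10.9. Some genes are not reported here.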

Additional observations from a re-analysis of the deposited data

Results flagged for a closer look

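Of 368 groups of 6 libraries examined, over the genes named and 5 summed marker lists, 15 had 1 library set apart from the others by Dixon's rule, and chance gives about 1 in 20 groups. In PFC library 13 this held for Gng7 at 22.7 RPKM, Kcnv1 at 31.5, Sstr1 at 6.51, Scn4b at 12.3, Stx1a at 100 and Rn7sk at 5.16. In PFC library 17 it held for Tac1 at 3.71 RPKM, Oprm1 at 0.466 and Tacr1 at 0.761. Fos stood low in PFC library 18, at 6.09, and Spp1 high in PFC library 16, at 2.91. In the NAc, Slc35d3 at 9.38 RPKM and Ntn1 at 8.52 stood low in library 2, Rbp4 at 7.55 stood high in library 4, and Ecel1 at 16.8 stood high in library 5. None of these values was given an explanation or a test.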

How the results depend on the processing

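Across the pseudocounts, filters, scalings, GC correction, array weights, voom and 36-library fits, the counts of genes called higher in the NAc ran from 382 to 744 and those higher in the PFC from 422 to 754, within 1.5 times the reported 540 and 560. A threshold of 1.5-fold gave 1262 and 1288, and 4-fold gave 150 and 114. Leaving out 1 library at a time gave 527 to 557 and 522 to 600 in sham, 513 to 555 and 573 to 639 in SNI, and 0 to 0 for the difference between surgeries. Near-0 differences changed sign: Slc12a5 to 0.05 with the GC trend removed; Slc1a2 to 0.0 with array weights, 0.01 without NAc library 4 and 0.0 without PFC library 16 (-0.03 to 0.01 over all single libraries left out). Without NAc libraries 2, 3, 4 and 6, Ttr went to -1.12 and Nmbr to -0.07. The cause was not tested. No paired analysis was made, because it is not given whether 1 set of mice gave both regions. Replicate numbers run on across the groups and do not show this. Depth limits genes near 0 RPKM most.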
